A study of Homo sapiens with 11 samples.

Results

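The transcription factors NFE2L1, NFE2L2 and NFE2L3, the proteins that process or restrain them (DDI2, NGLY1, KEAP1 and BACH1) and their small MAF partners (MAFF, MAFG and MAFK) were followed across the libraries of an RNA sequencing experiment. They were taken from the table of raw counts by gene symbol alone, which found all 10 genes among 38557 annotated genes. Messenger RNA had been prepared from MOLM-13, a human acute myeloid leukemia line whose rearranged KMT2A gene encodes a fusion protein that depends on Menin. The cells had been kept for 72 h in the diluent DMSO (4 libraries), in 1 µM of the Menin inhibitor MI-503 (4 libraries), or in 1 µM MI-503 with 100 nM of the immunoproteasome inhibitor PR-957, also known as ONX-0914 (3 libraries, numbered 1, 2 and 4). The group with both compounds is named the combination. Every library came from this 1 line, and none received PR-957 alone, so that PR-957 was seen only on top of MI-503. Nothing in the labels says whether replicates were separate cultures, and the tests therefore measure the spread between these libraries, which may be technical.

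NFE2L1 is made as a membrane protein of the endoplasmic reticulum and is destroyed by the proteasome. The protein is pulled out of the membrane by the ATPase VCP, stripped of its sugars by the glycanase NGLY1 and cut by the protease DDI2. When proteasome activity falls, the processed protein escapes destruction and switches on proteasome subunit genes. NFE2L2, also called NRF2, is held and marked for degradation by KEAP1, the adaptor of a CUL3 ubiquitin ligase, and when released drives antioxidant genes through antioxidant response elements (AREs). Both factors bind DNA as dimers with a small MAF protein, which has no activation domain of its own, and BACH1 competes for the same partners and sites as a repressor that heme removes. Much of this control acts on the proteins, which RNA counts do not measure.

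The regulatory stretches shown here belong to MAFG, MAFF and BACH1, the genes with the largest rises over DMSO in the combination. RefSeq promoter windows (GRCh38.p14, 250 bases before each annotated start) were found for 9 of the 10 genes. Both strands were searched for the ARE core TGACNNNGC and for TGAGTCA, the core of the site bound by MAF and AP-1 dimers. The ARE core was in 10.9% of all 35116 windows and TGAGTCA in 4.20%. Counted per gene, as a gene can have several windows, the shares were 13.2% and 5.19% of 27305 genes. KEAP1 and MAFF held the ARE core and BACH1 held TGAGTCA, and neither was found in the windows of the other 6 genes. The stretches are given 5′ to 3′ on the strand of the gene with the match in capitals, and that of MAFF ends where its first annotated exon begins.
BACH1, chr21:29298672-29298921, plus strand: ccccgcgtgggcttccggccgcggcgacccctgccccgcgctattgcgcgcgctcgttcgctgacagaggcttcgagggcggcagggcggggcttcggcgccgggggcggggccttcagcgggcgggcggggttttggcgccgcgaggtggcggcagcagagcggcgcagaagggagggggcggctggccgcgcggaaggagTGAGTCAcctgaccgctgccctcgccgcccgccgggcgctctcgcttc
MAFF, chr22:38201744-38201931, plus strand: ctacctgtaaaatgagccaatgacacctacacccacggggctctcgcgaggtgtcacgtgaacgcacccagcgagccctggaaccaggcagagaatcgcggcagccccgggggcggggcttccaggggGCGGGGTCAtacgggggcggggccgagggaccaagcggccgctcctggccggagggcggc
MAFG, chr17:81927736-81927985, minus strand: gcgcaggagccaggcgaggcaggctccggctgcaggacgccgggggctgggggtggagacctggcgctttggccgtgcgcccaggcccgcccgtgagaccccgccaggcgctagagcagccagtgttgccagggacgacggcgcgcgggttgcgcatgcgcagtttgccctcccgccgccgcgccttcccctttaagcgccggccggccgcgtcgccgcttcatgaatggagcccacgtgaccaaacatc

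In BACH1 the capitals mark TGAGTCA, whose first letter stands 48 bases before the start. In MAFF they mark an ARE core read on the opposite strand, 122 bases before the start of its window's transcript. The MAFG stretch has no capitals because neither set of letters occurs in it. KEAP1 held 2 ARE cores in the window of a shorter transcript, 54 and 31 bases before its start. These matches describe letters only, and binding was not measured.

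Counted fragments per library ranged from 18.9 to 41.2 M. All 10 genes passed the filter on low counts, which kept 14683 genes. The labelled cell type was checked by 8 myeloid leukemia markers, of which 8 reached a mean of 1 CPM (counts relative to 1 M of the scaled library total), with a sum of 1980 to 2660 CPM in a library. Markers of T cells, erythroid cells, epithelial cells and fibroblasts summed to under 1 CPM in every library, the highest sum being 0.991 CPM for fibroblasts. Combination replicate 1 stood apart: 36 of 10039 genes differed by over 2-fold from the average of the remaining combination libraries, where replicates 2 and 4 had 4 and 13 such genes. Among the 10 genes its farthest was MAFG, at −0.21 on the log2 scale.

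The 3 groups were compared to ask how the RNA of these regulators moved with Menin inhibition and with PR-957 added to it. In MI-503 against DMSO, BACH1, MAFG and NGLY1 rose, and KEAP1, DDI2 and MAFK fell. The largest of these changes was 1.31-fold, and the 3 falls did not pass the test with upper-quartile scaling, under which all genes had a median of 0.03 instead of −0.03. This made 6 of 10 genes called at an adjusted p under 0.05, where 51.4% of all tested genes were called (22% higher and 29.3% lower). The split over all genes was 3235 higher and 4307 lower, and 3968 and 3356 with upper-quartile scaling. In the combination against DMSO, 7 genes rose, led by MAFG, MAFF and BACH1, DDI2 fell, and NFE2L3 and MAFK did not pass the test. Of all tested genes 64.5% were called there, 31.7% higher and 32.8% lower. In the combination against MI-503, 7 genes rose, 0 fell, and NFE2L3, DDI2 and MAFK did not pass, where 47.4% of all genes were called, 23.6% higher and 23.8% lower. Without combination replicate 1 the counts of higher genes in the 3 comparisons were 3, 7 and 6, where 4141, 4689 and 3209 of 14751 tested genes were higher. The median log2 fold change over the 10 genes was −0.06, 0.19 and 0.26 in the 3 comparisons, beside −0.03, 0.01 and 0.00 over all tested genes. Each group enters 2 of these comparisons, so they are not independent.

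**Figure D1:**
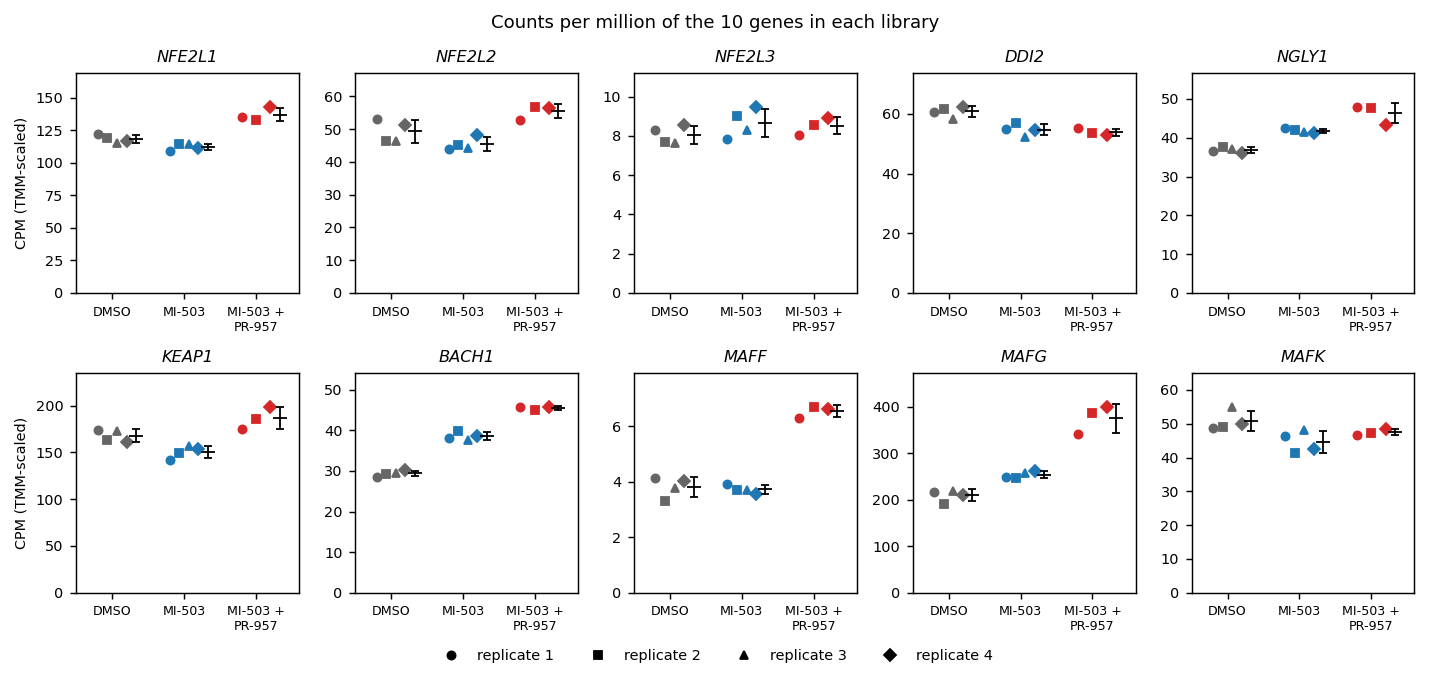
CPM (y axes, each from 0) of the 10 genes in the libraries of DMSO, MI-503 and the combination (x axes). Symbols mark the replicate number, and black bars the mean ± SD of 4, 4 and 3 libraries. Every combination library stands above all others for MAFG, BACH1, MAFF, NFE2L1, NGLY1 and KEAP1, by a small margin for the last 2. MAFG lies between 341 and 401 CPM in the combination against 192 to 220 CPM in DMSO, whereas NFE2L3 overlaps in all 3 groups.

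Among the NFE2L factors, NFE2L1 (chromosome 17, 48048359 to 48061545, plus strand) had the most RNA. Its level was 122, 119, 115 and 117 CPM in DMSO replicates 1 to 4. In MI-503 replicates 1 to 4 it was 109, 114, 114 and 111 CPM, and in combination replicates 1, 2 and 4 it was 135, 133 and 143 CPM. All combination libraries lay above all DMSO libraries, and all MI-503 libraries lay below them, the last by a narrow margin. NFE2L1 was 1.16-fold higher in the combination than in DMSO (log2 fold change 0.22, SE 0.04, edgeR adjusted p = 0.000229) and 1.23-fold higher than in MI-503 (0.29, SE 0.04, edgeR adjusted p = 2.33e-05). In MI-503 against DMSO it did not pass the test, at −0.08 with a 95% interval of −0.16 to 0.01 (edgeR adjusted p = 0.111). In bulk RNA, a change in the share of cells that express a gene and a change in RNA per cell cannot be told apart.

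NFE2L2 (chromosome 2, 177230303 to 177265131, minus strand), the main activator of antioxidant genes, was at 53.2, 46.4, 46.4 and 51.2 CPM in DMSO replicates 1 to 4. It was at 43.8, 45.2, 44.2 and 48.3 CPM in MI-503 replicates 1 to 4 and at 52.9, 56.8 and 56.4 CPM in combination replicates 1, 2 and 4. The combination lay above every MI-503 library, but its replicate 1 fell just inside the DMSO range. NFE2L2 rose 1.22-fold from MI-503 to the combination (log2 fold change 0.29, SE 0.06, edgeR adjusted p = 6e-04). Its rise over DMSO was 0.16 (SE 0.06, edgeR adjusted p = 0.0192) and was lost without DMSO replicate 2 or 3 or combination replicate 2 or 4, with edgeR adjusted p between 0.0526 and 0.0671. In MI-503 against DMSO the change of −0.12 did not pass (SE 0.05, edgeR adjusted p = 0.0716), but it did when DMSO replicate 2, DMSO replicate 3 or MI-503 replicate 4 was left out, with edgeR adjusted p of 0.0389 to 0.0401.

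NFE2L3 (chromosome 7, 26152198 to 26187137, plus strand), the least studied of the 3 factors, was low and did not move beyond its spread. Its means were 8.05 ± 0.442 CPM in the 4 DMSO libraries (SD), 8.66 ± 0.725 CPM in the 4 MI-503 libraries and 8.52 ± 0.429 CPM in the 3 combination libraries, and all 3 groups overlapped. The intervals of its log2 differences were −0.07 to 0.29 for MI-503 against DMSO, −0.12 to 0.27 for the combination against DMSO and −0.22 to 0.16 for the combination against MI-503. The edgeR adjusted p values were 0.311, 0.480 and 0.805. The interval against DMSO in the combination holds the 0.22 seen for NFE2L1, whereas that against MI-503 lies wholly under the 0.29 of NFE2L1.

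Scaled by exon length, NFE2L1 held the largest share of the summed NFE2L RNA in every group. The unit was FPKM, fragments per kilobase of exon and per M of the scaled library total. NFE2L1 made up 60.2% ± 1.34 of the summed FPKM in the 4 DMSO libraries (SD). It made up 60.3% ± 1.28 in the 4 MI-503 libraries and 61.1% ± 1.09 in the 3 combination libraries. NFE2L2 made up 34.4%, 33.5% and 33.9%, and NFE2L3 5.39%, 6.13% and 4.99%. The log2 ratio of NFE2L1 to NFE2L2, which does not depend on the scaling of a library, was 0.806 ± 0.0833 in DMSO, 0.848 ± 0.0723 in MI-503 and 0.851 ± 0.0686 in the combination. The groups overlapped in each comparison, with two-sided exact permutation p of 0.4, 0.4 and 0.8.

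The enzymes that ready NFE2L1 moved in opposite directions. NGLY1 (chromosome 3, 25718944 to 25790039, minus strand), which removes its sugars, was at 36.6, 37.7, 37.1 and 36.0 CPM in DMSO replicates 1 to 4. It was at 42.4, 42.1, 41.4 and 41.3 CPM in MI-503 replicates 1 to 4 and at 48.0, 47.7 and 43.3 CPM in combination replicates 1, 2 and 4. The 3 groups did not overlap. The log2 fold change was 0.18 in MI-503 against DMSO (SE 0.05, edgeR adjusted p = 0.00346) and 0.33 in the combination against DMSO (SE 0.05, edgeR adjusted p = 1.49e-05). The further step from MI-503 to the combination was 0.15 (SE 0.05, edgeR adjusted p = 0.0180). It was 0.09 and no longer passed without combination replicate 1 (edgeR adjusted p = 0.147) or replicate 2 (edgeR adjusted p = 0.188).

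DDI2 (chromosome 1, 15617458 to 15669044, plus strand), the protease that cuts NFE2L1 free, was lower under both treatments. It was at 60.8, 61.8, 58.4 and 62.4 CPM in DMSO replicates 1 to 4, at 55.1, 56.9, 52.4 and 54.5 CPM in MI-503 replicates 1 to 4, and at 55.2, 53.5 and 53.0 CPM in combination replicates 1, 2 and 4. Every treated library lay below every DMSO library, and the treated groups overlapped. The change against DMSO was −0.15 in MI-503 (SE 0.04, edgeR adjusted p = 0.00626) and −0.17 in the combination (SE 0.05, edgeR adjusted p = 0.00318). The combination differed from MI-503 by −0.02, with an interval of −0.12 to 0.07 (edgeR adjusted p = 0.733). With upper-quartile scaling the falls were −0.09 and −0.10 and did not pass (edgeR adjusted p = 0.0987 and 0.0621). Of the exon bases of DDI2, 20.6% are also annotated as RSC1A1, and fragments over exons of both genes had not been counted.

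KEAP1 (chromosome 19, 10486125 to 10503356, minus strand), the inhibitor that keeps NFE2L2 low, was at 174, 163, 173 and 161 CPM in DMSO replicates 1 to 4. It was at 142, 149, 157 and 154 CPM in MI-503 replicates 1 to 4 and at 175, 186 and 199 CPM in combination replicates 1, 2 and 4. All MI-503 libraries lay below the DMSO range and all combination libraries above it, replicate 1 by a small margin. KEAP1 rose 1.24-fold from MI-503 to the combination (log2 fold change 0.31, SE 0.05, edgeR adjusted p = 9.36e-05). Its fall in MI-503 was −0.16 (SE 0.05, edgeR adjusted p = 0.0106) and did not pass with upper-quartile scaling (edgeR adjusted p = 0.0778), with a stricter filter (0.0613) or without combination replicate 2 (0.0581). Its rise in the combination over DMSO was 0.15 (SE 0.05, edgeR adjusted p = 0.0142), and 0.10 without combination replicate 4 (edgeR adjusted p = 0.0928).

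The proportion of NFE2L2 to KEAP1 did not differ between groups beyond its spread. The log2 ratio of NFE2L2 to KEAP1 was −2.01 ± 0.110 in the 4 DMSO libraries (SD), −1.97 ± 0.0728 in the 4 MI-503 libraries and −1.99 ± 0.0596 in the 3 combination libraries. The groups overlapped in every comparison, with two-sided exact permutation p of 0.6, 0.914 and 0.571.

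BACH1 (chromosome 21, 29298922 to 29361896, plus strand), the repressor of ARE genes, rose in 2 steps. It was at 28.5, 29.3, 29.6 and 30.2 CPM in DMSO replicates 1 to 4. It was at 38.2, 39.8, 37.7 and 38.7 CPM in MI-503 replicates 1 to 4 and at 45.7, 45.0 and 45.9 CPM in combination replicates 1, 2 and 4. The 3 groups did not overlap, and the gaps between them were wider than any group's own range. BACH1 was 1.31-fold higher in MI-503 than in DMSO (log2 fold change 0.39, SE 0.04, edgeR adjusted p = 1.49e-06) and 1.55-fold higher in the combination (0.63, SE 0.05, edgeR adjusted p = 3.72e-09). From MI-503 to the combination the step was 0.24 (SE 0.05, edgeR adjusted p = 0.000427). The 3 calls held under all 19 alternatives, which gave 0.38 to 0.46, 0.62 to 0.70 and 0.20 to 0.26.

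The proportion of the activator NFE2L2 to the repressor BACH1 was lower in both treatments than in DMSO. The log2 ratio of NFE2L2 to BACH1 was 1.66 ± 0.116 in the 4 DMSO libraries (SD), 1.15 ± 0.0627 in the 4 MI-503 libraries and 1.20 ± 0.0642 in the 3 combination libraries. DMSO did not overlap with either treated group, and the treated groups overlapped. The difference was −0.51 for MI-503 (two-sided exact permutation p = 0.0286, 0.137 adjusted over 12 tests of this kind) and −0.46 for the combination (exact permutation p = 0.0571, adjusted p = 0.137). These are the smallest p that 4 against 4 and 3 against 4 libraries allow. The combination and MI-503 differed by 0.05 (exact permutation p = 0.4).

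**Figure D2:**
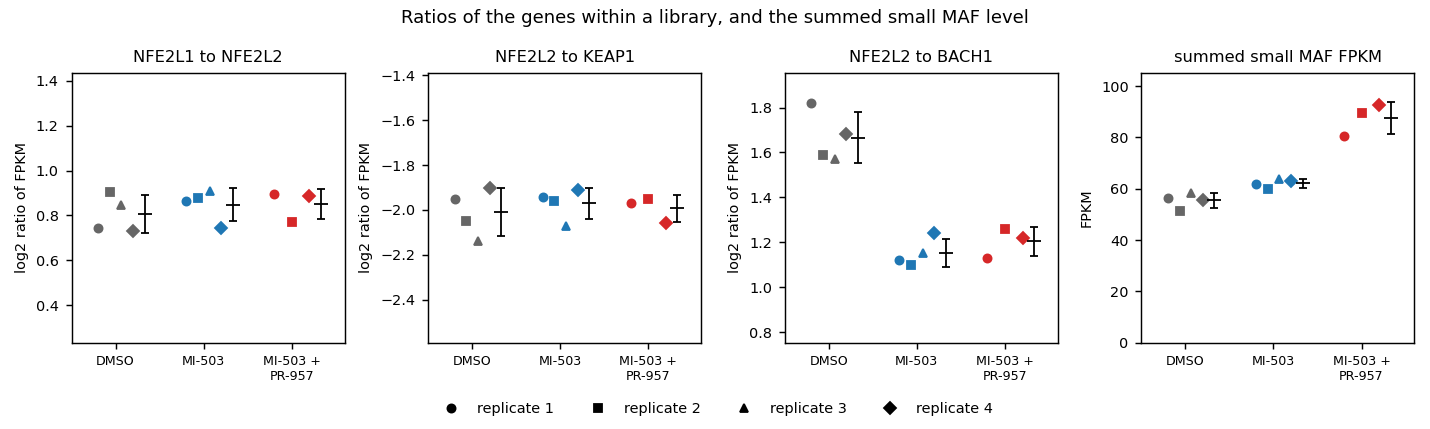
Log2 ratios of FPKM within a library for NFE2L1 to NFE2L2, NFE2L2 to KEAP1 and NFE2L2 to BACH1 (y axes of equal length), and the summed FPKM of MAFF, MAFG and MAFK (y axis from 0), by group (x axes). Symbols mark replicates, and bars the mean ± SD of 4, 4 and 3 libraries. The first 2 ratios overlap between all groups, the ratio to BACH1 is lower in both treatments (means 1.15 and 1.20 against 1.66 in DMSO), and the small MAF sum is highest in the combination (87.7 FPKM).

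The small MAF proteins, the dimer partners of all these factors, did not move together. MAFG (chromosome 17, 81918270 to 81927735, minus strand) was at 217, 192, 220 and 211 CPM in DMSO replicates 1 to 4. It was at 249, 246, 258 and 262 CPM in MI-503 replicates 1 to 4 and at 341, 386 and 401 CPM in combination replicates 1, 2 and 4. The 3 groups did not overlap, although replicate 1 was the lowest of the combination. MAFG was 1.21-fold higher in MI-503 than in DMSO (log2 fold change 0.27, SE 0.05, edgeR adjusted p = 0.000414) and 1.79-fold higher in the combination (0.84, SE 0.06, edgeR adjusted p = 1.21e-09). From MI-503 to the combination the rise was 0.57 (SE 0.06, edgeR adjusted p = 5.21e-07). In size this step ranked at the 85.1 percentile of all tested genes, and the change over DMSO at the 83.2 percentile. Other rises over DMSO in the combination ranked at 80.2 for MAFF, 73 for BACH1, 46.4 for NGLY1, 31.7 for NFE2L1, 24.8 for NFE2L2 and 23.4 for KEAP1. From MI-503 to the combination the ranks were 62.8 for KEAP1, 60.2 for NFE2L1, 59.2 for NFE2L2, 51.8 for BACH1 and 34.4 for NGLY1. All 3 calls held under all 19 alternatives.

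The MAFG stretch printed above overlaps an exon of MAFG-DT, a noncoding RNA transcribed away from MAFG, which was looked up after the values had been seen. MAFG-DT went the other way, with 8.30 ± 0.307 CPM in the 4 DMSO libraries (SD), 7.38 ± 1.12 CPM in the 4 MI-503 libraries and 5.19 ± 0.813 CPM in the 3 combination libraries. Its log2 change was −0.66 in the combination against DMSO (SE 0.12, edgeR adjusted p = 0.000167) and −0.50 against MI-503 (SE 0.12, edgeR adjusted p = 0.00339). In MI-503 against DMSO it was −0.17 and did not pass (edgeR adjusted p = 0.228).

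MAFF (chromosome 22, 38201932 to 38216511, plus strand), the small MAF with the least RNA here, was at 4.15, 3.31, 3.79 and 4.03 CPM in DMSO replicates 1 to 4. It was at 3.93, 3.72, 3.71 and 3.56 CPM in MI-503 replicates 1 to 4 and at 6.30, 6.72 and 6.62 CPM in combination replicates 1, 2 and 4. DMSO and MI-503 overlapped, and every combination library lay above both. MAFF rose 1.70-fold over DMSO (log2 fold change 0.77, SE 0.11, edgeR adjusted p = 7.73e-06) and 1.75-fold over MI-503 (0.81, SE 0.11, edgeR adjusted p = 1.07e-05). The latter ranked at the 92.6 percentile of all tested genes by size. MI-503 differed from DMSO by −0.04, with an interval of −0.27 to 0.19 (edgeR adjusted p = 0.785). The counts behind these values were low, at 72 to 267 fragments in a library.

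MAFK (chromosome 7, 1530702 to 1543043, plus strand), the third small MAF, fell in MI-503 and did not pass the test in the combination. Its means were 50.7 ± 2.99 CPM in the 4 DMSO libraries (SD), 44.5 ± 3.25 CPM in the 4 MI-503 libraries and 47.5 ± 0.870 CPM in the 3 combination libraries. Every treated library lay below every DMSO library, and the treated groups overlapped. The margin was narrow, with 48.5 CPM as the highest in the combination and 48.7 CPM as the lowest in DMSO. It fell by 0.19 on the log2 scale in MI-503 (SE 0.06, edgeR adjusted p = 0.00951), a call that upper-quartile scaling did not keep (edgeR adjusted p = 0.0664). The combination differed by −0.09 from DMSO (interval −0.22 to 0.03, edgeR adjusted p = 0.184) and by 0.10 from MI-503 (interval −0.03 to 0.22, edgeR adjusted p = 0.208). Of its exon bases 21.2% are shared with TMEM184A on the opposite strand, and counting had ignored strand.

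Summed per exon length, small MAF RNA amounted to 55.4 ± 2.99 FPKM in the 4 DMSO libraries (SD), 62.1 ± 1.81 FPKM in the 4 MI-503 libraries and 87.7 ± 6.27 FPKM in the 3 combination libraries. The 3 groups did not overlap. Each difference had the smallest exact permutation p that its group sizes allow, 0.0286 for MI-503 against DMSO and 0.0571 for the others, and an adjusted p of 0.137. MAFG held 73.2% ± 0.907 of this sum in DMSO, 78.8% ± 1.13 in MI-503 and 82.8% ± 0.960 in the combination. MAFK held 24.0%, 18.8% and 14.3%, and MAFF 2.72%, 2.37% and 2.95%.

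**Figure D3:**
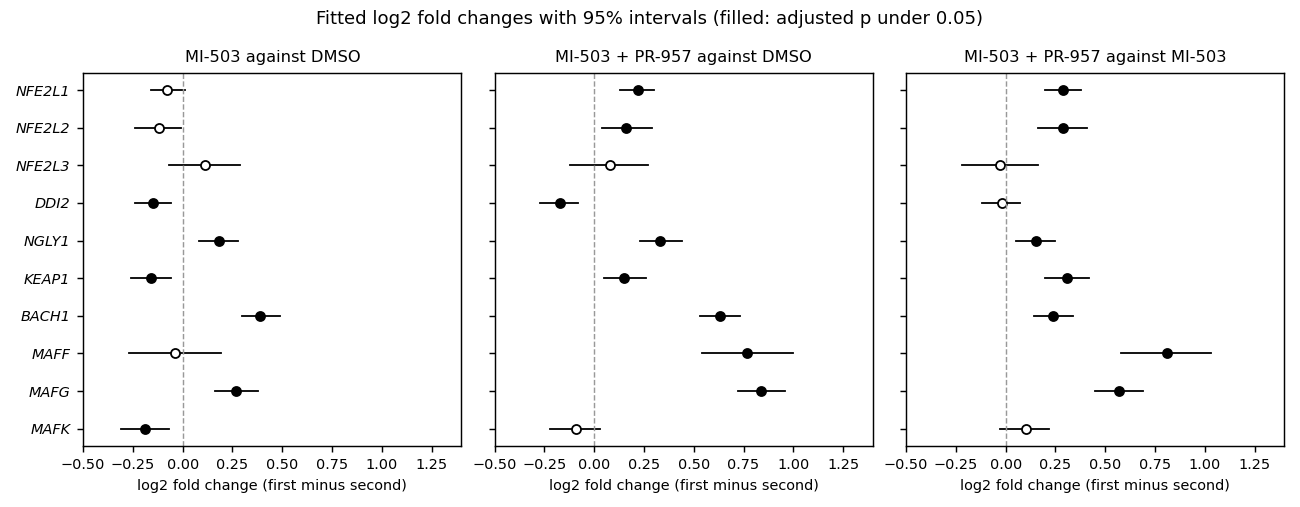
Fitted log2 fold changes of the 10 genes (points, x axes) with 95% intervals (lines) in MI-503 against DMSO, the combination against DMSO and the combination against MI-503. Filled points passed an edgeR adjusted p of 0.05. MAFG (0.84) and MAFF (0.77) lie farthest to the right against DMSO in the combination, BACH1 is to the right of 0 in every panel, and NFE2L3 crosses 0 in every panel.

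In DMSO the order of the levels by FPKM was KEAP1 (55.4 ± 2.17), MAFG (40.6 ± 2.40), NFE2L1 (24.0 ± 0.666), NFE2L2 (13.8 ± 0.961), MAFK (13.3 ± 0.783), NGLY1 (10.3 ± 0.207), DDI2 (5.70 ± 0.163), BACH1 (4.33 ± 0.107), NFE2L3 (2.15 ± 0.118) and MAFF (1.51 ± 0.147), each over 4 libraries. NFE2L2 and MAFK overlapped, and the other neighbours did not. Scaled by the length it does not share with TMEM184A, the mean of MAFK was above that of NFE2L2 in all 3 groups, at 16.9 against 13.8 FPKM in DMSO, 14.8 against 12.7 FPKM in MI-503 and 15.8 against 15.5 FPKM in the combination. With MI-503, KEAP1 at 49.6 ± 2.23 FPKM and MAFG at 49.0 ± 1.44 FPKM overlapped at the top (SD, n = 4). In the combination MAFG at 72.6 ± 6.0 FPKM stood above KEAP1 at 61.7 ± 3.99 FPKM without overlap (SD, n = 3). MAFF passed NFE2L3 there as well, at 2.59 ± 0.0863 against 2.28 ± 0.115 FPKM. BACH1 stood above DDI2 in MI-503 at 5.69 against 5.13 FPKM, an order that turned when DDI2 was scaled by the length it does not share with RSC1A1 (6.46 FPKM).

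A wider list of 18 genes that act on NFE2L factors showed no common direction, and 13 of them could be tested. The rest had too few counts, among them SQSTM1, whose exons recur on another contig of hg38 where fragments with several mappings had not been counted. In MI-503 against DMSO 2 were higher and 4 lower, with a median log2 fold change of −0.07. The shares over all tested genes were 22% higher and 29.3% lower. In the combination 6 were higher and 4 lower against DMSO (median −0.02), where 31.7% of all tested genes were higher and 32.8% lower. In its comparison with MI-503, 4 were higher and 2 lower (median −0.04), beside 23.6% and 23.8% of all tested genes. The last count of lower genes was 4 without combination replicate 1 and 1 without MI-503 replicate 4. NFE2, a hematopoietic relative of NFE2L1 that also pairs with small MAFs, went from 39.1 ± 5.54 CPM in the 4 DMSO libraries (SD) to 111 ± 2.54 CPM in the 4 MI-503 libraries and 107 ± 6.52 CPM in the 3 combination libraries. Its log2 change was 1.5 in MI-503 (SE 0.07, edgeR adjusted p = 8.09e-11), larger in size than any of the 10 genes. The combination differed from MI-503 by −0.04 (SE 0.07, edgeR adjusted p = 0.648).

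CUL3 and RBX1, the other parts of the KEAP1 ligase, were lower in the combination, where KEAP1 was higher. CUL3, its scaffold, went from 114 ± 2.47 CPM in the 4 DMSO libraries (SD) to 91.0 ± 2.99 CPM in the 4 MI-503 libraries and 82.0 ± 7.63 CPM in the 3 combination libraries. CUL3 changed by −0.33 in MI-503 (SE 0.05, edgeR adjusted p = 3.94e-05) and by −0.48 in the combination against DMSO (SE 0.05, edgeR adjusted p = 6.82e-07). Its RING partner RBX1 changed by −0.29 in the combination against DMSO (SE 0.06, edgeR adjusted p = 0.000385) and by −0.20 against MI-503 (SE 0.06, edgeR adjusted p = 0.0108). BTRC, which marks NFE2L2 for degradation by a route without KEAP1, rose by 0.25 from MI-503 to the combination (SE 0.07, edgeR adjusted p = 0.00794). The fall of CUL3 from MI-503 to the combination, −0.15 (edgeR adjusted p = 0.0292), did not pass without MI-503 replicate 2 or 4 or combination replicate 1, with edgeR adjusted p of 0.0658 to 0.0814.

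VCP and SYVN1, which handle NFE2L1 at the endoplasmic reticulum, rose from MI-503 to the combination. VCP, the ATPase that extracts it, went from 350 ± 8.99 CPM in the 4 DMSO libraries (SD) to 281 ± 12.1 CPM in the 4 MI-503 libraries and 530 ± 36.9 CPM in the 3 combination libraries. VCP changed by −0.32 in MI-503 against DMSO (SE 0.05, edgeR adjusted p = 2.76e-05) and by 0.92 from MI-503 to the combination (SE 0.05, edgeR adjusted p = 3.66e-10). SYVN1, a ubiquitin ligase of that membrane, was at 48.6 ± 2.07 CPM in DMSO, 48.6 ± 3.01 CPM in MI-503 and 65.2 ± 3.91 CPM in the combination, a rise of 0.42 over MI-503 (SE 0.06, edgeR adjusted p = 1.39e-05). HCFC1, a cofactor bound by the sugar transferase OGT, was lower than DMSO in both treatments, by −0.29 in MI-503 (edgeR adjusted p = 0.000219) and −0.41 in the combination (edgeR adjusted p = 9.7e-06). SEL1L, the partner of SYVN1, and GSK3B were tested and called in none of the 3 comparisons.

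Known ARE targets, a list of 25 genes of which 24 were tested, were mostly higher in the combination. In MI-503 against DMSO 4 were higher and 6 lower, with a median log2 fold change of −0.05. The shares over all tested genes were 22% higher and 29.3% lower. In the combination 19 were higher and 2 lower against DMSO (median 0.66), where 31.7% of all tested genes were higher and 32.8% lower. In its comparison with MI-503, 22 were higher and 0 lower (median 0.65), beside 23.6% and 23.8% of all tested genes. Without combination replicate 1 the counts of higher and lower genes were 7 and 6 for MI-503, 20 and 1 for the combination against DMSO, and 21 and 0 against MI-503. Leaving out combination replicate 2 or 4 also gave 7 higher genes for MI-503, and 1 gene was lower in the combination against DMSO without DMSO replicate 1 or 3 or combination replicate 2. The heme transporter gene SLC48A1 rose from 14.9 ± 0.690 CPM in the 4 DMSO libraries (SD) to 35.1 ± 2.33 CPM in the 4 MI-503 libraries and 78.4 ± 4.96 CPM in the 3 combination libraries. BLVRB, a biliverdin reductase, went from 22.1 ± 1.83 to 49.1 ± 1.62 and 130 ± 17.6 CPM in the same order. GCLM, the modifier subunit of the first enzyme of glutathione synthesis, rose by 1.30 over DMSO (SE 0.07, edgeR adjusted p = 4.66e-11) and by 1.16 over MI-503 (SE 0.07, edgeR adjusted p = 5.74e-10). The peroxidase PRDX1 fell by 0.45 in MI-503 (SE 0.05, edgeR adjusted p = 7.65e-07).

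HMOX1, the heme oxygenase that BACH1 represses, was named after its values had been seen. It was at 0.230 to 0.569 CPM in the 4 DMSO libraries and at 0.407 to 0.825 CPM in the 4 MI-503 libraries. In combination replicates 1, 2 and 4 it was at 7.97, 89.2 and 47.3 CPM. Every combination library lay above all others, and they differed among themselves by more than 10-fold. The fitted log2 change was 6.91 over DMSO (SE 0.74, edgeR adjusted p = 2.94e-07), and 6.13 without combination replicate 2. Replicate 1, the lowest for HMOX1, was also the lowest of the 3 for NFE2L2, NFE2L3, KEAP1, MAFF, MAFG and MAFK. That replicate was the highest for NGLY1 and DDI2, and in between for NFE2L1 and BACH1. With 3 libraries no relation between these genes was tested.

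Of 32 proteasome subunit genes, the targets of NFE2L1, 30 were tested. PSMB3 and PSMC4 were left out by the filter, with 0 fragments for PSMB3 and at most 2 for PSMC4 in a library, and the cause was not tested. All 30 were lower in MI-503 than in DMSO (median −0.35), and all 30 were higher in the combination than in MI-503 (median 0.94). Over all tested genes, 29.3% were lower in the first of these comparisons and 23.6% higher in the second. Against DMSO 26 were higher and 0 lower in the combination (median 0.61), where 31.7% of all tested genes were higher and 32.8% lower. The changes of NFE2L1 were smaller, −0.08, 0.29 and 0.22 in the same order. Examples with the smallest adjusted p from MI-503 to the combination are ADRM1, a ubiquitin receptor of the proteasome, at 1.27 (SE 0.06, edgeR adjusted p = 3.03e-11), and the base subunits PSMD2 at 1.32 and PSMC2 at 1.11 (edgeR adjusted p = 4e-11 for each).

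**Figure D4:**
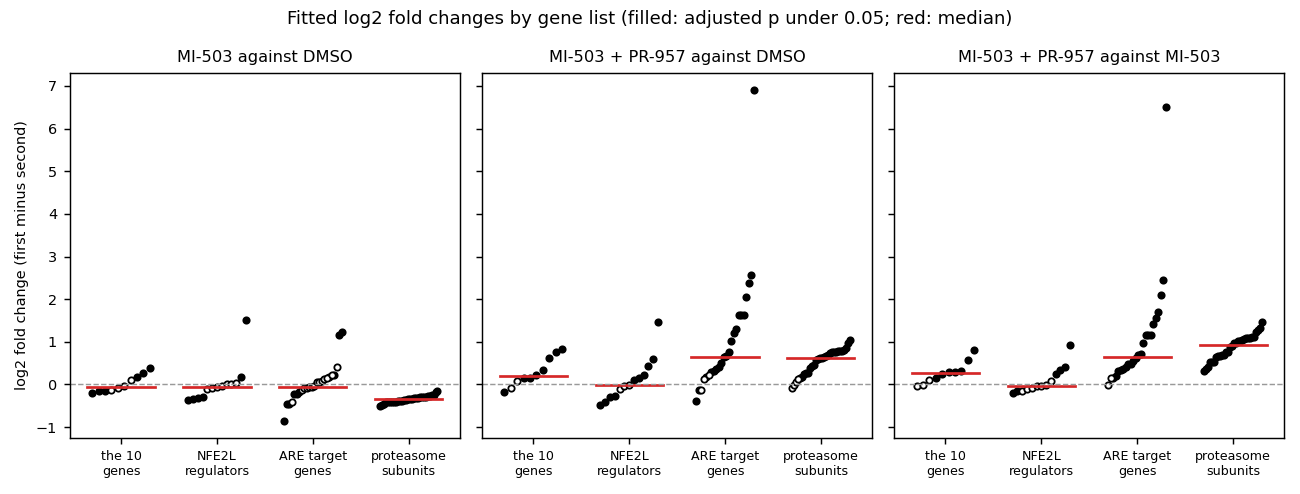
Fitted log2 fold changes (y axis) of the tested genes of each list (x axis, sorted within a list) in the 3 comparisons. Filled points passed an edgeR adjusted p of 0.05 and red lines mark medians. The 30 proteasome subunits lie below 0 in MI-503 against DMSO and above 0 in the combination against MI-503 (medians −0.35 and 0.94), while the 10 genes themselves have medians of −0.06 and 0.26. The highest point among ARE targets is HMOX1 in both panels with the combination, and SLC48A1 (1.23) in MI-503 against DMSO.

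The same letters were looked for in front of the list genes. The ARE core was in the window of 5 of 18 ARE targets found in the promoter table (EPHX1, GCLM, ME1, PGD and TXNRD1), of 6 of 27 proteasome subunits and of 5 of 13 regulators, against 13.2% of all 27305 genes. TGAGTCA was found for 2, 2 and 0 of them, against 5.19% of all genes. Distal elements, such as those known for HMOX1, lie outside so short a window.

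For each of the 10 genes, the genes with the most similar log2 CPM over the 11 libraries were looked up among 10039 genes averaging 5 CPM or more. MAFG was followed most closely by EVI5L (Pearson r = 0.997), RAP2B (0.991) and MAPK7 (0.989), and BACH1 by BCL3 (0.993), CD84 (0.991) and NCBP3 (0.991). NFE2L1 was followed by UBE4B (0.981), EIF6 (0.980) and ACOT13 (0.980), and MAFF by GAS8 (0.985), TANGO2 (0.983) and PPP1R15A (0.982). NFE2L2 had RMC1 (0.963) and KEAP1 had CLTB (0.982) at the top. NFE2L3 had no gene above OCRL (0.855). The 11 libraries fall into 3 treatment groups, so that any 2 genes with like steps between the groups correlate, and no test was made.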

How the data were processed

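RNA had been sequenced in 4 DMSO, 4 MI-503 and 3 MI-503 + PR-957 libraries of MOLM-13, grouped here by their labels. The deposited files hold raw counts per gene, without normalization, which the authors made with Trimmomatic 0.39, STAR 2.7.10a and featureCounts 2.0.1, as named in the submitters' processing notes. Per the file headers, exons of the RefSeq annotation of hg38 were counted without regard to strand, and fragments with several mappings or over several genes were left out. The joined table and the single tables differed in 0 cells. Tables of differential expression made by the authors with DESeq2 (log2 fold changes, standard errors and p-values) were not used.

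Counts were analyzed in R 4.3.3 (DESeq2 1.42.0, edgeR 4.0.16, limma 3.58.1), and with scipy 1.17.1 in Python 3.11.15. All 11 libraries entered 1 quasi-likelihood fit with a mean per group and TMM factors (0.956 to 1.06), over 14683 genes kept by filterByExpr (minimum count 10, minimum total 15). Two-sided p-values were adjusted by Benjamini-Hochberg over the 14683 genes, called at an adjusted p under 0.05, and are the "edgeR adjusted p" of the text. The common biological coefficient of variation was 6.14%, with 8 residual degrees of freedom. Log2 CPM used a prior count of 0.5, and FPKM were computed from the counts, the exon lengths and the TMM-scaled library totals. Ratios within a library were compared by exact permutation tests, adjusted over 12 tests. On simulated counts of the combination against DMSO (14683 genes, 50 changed genes for each fold), the fit recovered 52% of 1.25-fold, 70% of 1.5-fold and 92% of 2-fold changes. The simulation changed 200 genes in total, whereas 64.5% of tested genes were called in the data. Its rates may therefore not hold for the real fit. Precision is limited by the number of libraries and, for MAFF and NFE2L3, by low counts.

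The 10 genes, the lists (written from general knowledge) and the tests were chosen with earlier results of these data known. Named genes were the 10 genes, any regulator, and from the ARE and proteasome lists the 3 most significant genes of a comparison. Promoter sequences are those of RefSeq for GRCh38.p14. Scaling, filters, DESeq2, limma-voom, a fit of 2 groups, a replicate block and each library left out were tried as alternatives.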

Additional observations from a re-analysis of the deposited data

How the results depend on the processing

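Of 30 results (10 genes in 3 comparisons), 19 kept direction and call under all 19 alternatives. Over 570 values, 545 kept both, 15 lost the call, 4 gained it and 6 changed sign. The 6 were uncalled and near 0, namely MAFF in MI-503 against DMSO (0.023 with upper-quartile factors, 0.012 with a stricter filter of 1 CPM, 0.006 with only the 2 groups, and −0.102 to 0.008 over libraries left out) and NFE2L3 in the combination against MI-503 (−0.108 to 0.015 over libraries left out). With upper-quartile factors, 3 of the 10 genes were called and 0 were lower in MI-503 against DMSO, and 0 were lower in the combination against DMSO, where 3968 genes were higher and 3356 lower, and 5370 higher and 4161 lower, of all 14683. Of the other named genes, 823 of 836 values kept call and direction, 13 lost the call, and OGT and CREBBP in the combination against DMSO were among these. The causes were not tested.

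Counts of ARE targets higher in MI-503 were 7 with RLE factors and the stricter filter, 8 with upper-quartile factors and with only the 2 groups, and 3 to 7 over libraries left out. Those lower in the combination against DMSO were 1 with no filter, with upper-quartile factors, with only the 2 groups and with the stricter filter, and 1 to 3 over libraries left out. Regulators in the combination against MI-503 were 7 higher with no filter and 1 lower with only the 2 groups, and 1 to 4 lower over libraries left out. Proteasome subunits lower in the combination against DMSO were 0 to 1, and ARE targets lower in the combination against MI-503 0 to 1, over libraries left out.

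Over libraries left out, the ratio of NFE2L1 to NFE2L2 in the combination against MI-503 changed sign (−0.0312 to 0.0431). So did that of NFE2L2 to KEAP1 in MI-503 against DMSO (−0.00463 to 0.0777), in the combination against DMSO (−0.0281 to 0.0542) and against MI-503 (−0.0581 to 0.0106). For MI-503 against DMSO the ratio of NFE2L2 to BACH1 ranged from −0.544 to −0.459 and summed small MAF from 5.38 to 7.76 FPKM, each with an exact permutation p of 0.0571, the smallest left to 3 against 4 libraries.

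The values did not settle whether replicate numbers mark pairs. Deviations from group means correlated at −0.252 to 0.285 in 10 pairs of the same number and at −0.314 to 0.317 in 30 other pairs. Of 11 libraries, 4 correlated best with their own number. A weak pairing may remain, and the main fit had no block. With a replicate block 6, 8 and 8 of the 10 genes were called in the 3 comparisons (over all 14683 genes, 3304 higher and 4326 lower, 4543 and 4769, and 3365 and 3448), MAFK was called in the combination against MI-503 (0.135, edgeR adjusted p = 0.0479), and 1 ARE target was lower in the combination against DMSO.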
